A study of Homo sapiens with 6 samples.

Results

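Cadherins and non-clustered protocadherins were taken as every gene whose symbol is CDH or PCDH followed by a number alone, which gave 34 of the 57820 genes in the count tables. The clustered protocadherins, whose symbols carry a letter, and relatives such as the FAT and desmoglein genes fall outside this rule. RNA was sequenced from AID-DIvA cells, a line made from the osteosarcoma line U2OS by integrating a vector for the restriction enzyme AsiSI, which cuts the genome only after it is called into the nucleus. The 3 wild-type (WT) samples and the 3 ARID1A-KO samples all carried this vector, and none was treated. ARID1A-KO cells were made with Cas9 and guides against ARID1A, a DNA-binding subunit of a SWI/SNF chromatin remodeling complex, and knockout clones were derived. Which clone gave the ARID1A-KO samples is not given in the sources used here, so the 3 samples may share 1 clone. The study describes its RNA-seq samples as independent experiments, while the labels do not say whether they came from separate cultures. The p-values measure the spread between these samples.

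Classical cadherins are calcium-dependent adhesion receptors: their outer domains bind a like cadherin on the next cell and their tails hold catenins, which link them to actin. Type I cadherins include the epithelial CDH1 and the neural and mesenchymal CDH2, and type II cadherins such as CDH6 and CDH11 sort cells of different kinds in the embryo. Non-clustered protocadherins share the outer repeats but not the catenin-binding tail, adhere weakly, and are known mostly for guiding axons, synapses and cell movement. Bone-forming cells are known for CDH2 and CDH11 rather than CDH1.

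The labels were checked first. Levels are given in CPM, counts scaled to the size of each library. ARID1A stood at 166, 178 and 177 CPM in the WT samples and 25.1, 27.5 and 25.2 in the ARID1A-KO samples, a 6.69-fold lower level (log2 fold change of -2.74, SE 0.068, adjusted p = 9.66e-08). Total reverse-stranded counts ran from 54512105 to 84088708 per sample. Of 8 osteoblast lineage markers 5 passed the filter on low counts, with ALPL, SPP1 and COL1A1 lower in ARID1A-KO cells, and SP7, IBSP and BGLAP near 0. RUNX2 was at 15.0 ± 1.43 CPM in WT and 14.6 ± 3.82 CPM in ARID1A-KO samples (log2 fold change of -0.033, adjusted p = 0.899). COL1A2 did not pass the test either (log2 fold change of -0.46, adjusted p = 0.365). The summed level of the list ran from 494 to 543 CPM in WT and from 293 to 429 CPM in ARID1A-KO samples. Most of it was COL1A1, at 447 ± 15.8 CPM in WT and 322 ± 61.3 CPM in ARID1A-KO samples. Of 7 epithelial markers 3 passed the filter and EPCAM alone passed the test (log2 fold change of 0.44, SE 0.13, adjusted p = 0.0274). Its adjusted p was 0.085 without ARID1A-KO sample 3, 0.0686 without ARID1A-KO sample 4, 0.0655 without WT sample 4 and 0.0599 without WT sample 5, and the list summed to 8.19 to 11.6 CPM in WT and 12.0 to 14.3 CPM in ARID1A-KO samples. CLDN3 was at 0 and CLDN7, GRHL2 and RAB25 were near 0. Endothelial markers summed to 1.53 to 2.85 CPM in WT and 1.363 to 1.498 CPM in ARID1A-KO samples, with TEK alone of 4 passing the test (log2 fold change of -2.14, SE 0.33, adjusted p = 0.000933). The log2 fold changes of TIE1, ESAM and KDR were 0.83, 0.41 and 0.17, none past the test. Leukocyte markers summed to 1.72 to 2.91 CPM in WT and 0.323 to 0.886 CPM in ARID1A-KO samples, with PTPRC alone of 2 tested passing the test (log2 fold change of -2.10, SE 0.39, adjusted p = 0.00292) and CD3E at or near 0. The part of these markers in the results below was not tested, and in such bulk RNA a smaller number of expressing cells and less RNA per cell cannot be told apart.

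Levels per length were read in TPM, which scales counts to gene length and depth (means ± SD, n = 3). CDH2 led in both genotypes, with 109, 108 and 119.8 TPM in the WT samples and 65.9, 70.1 and 67.2 in the ARID1A-KO samples. It held 48.4 ± 0.18% of the TPM summed over the 34 genes in WT and 42.2 ± 3.40% in ARID1A-KO samples. Next in WT cells were CDH24, a type II cadherin, at 30.3 ± 2.27 TPM, CDH13 at 22.2 ± 2.65, CDH4 at 19.5 ± 4.16 and CDH18 at 14.8 ± 0.382 TPM. The ranges of CDH13 and CDH4 overlapped between samples, as did those of CDH4 and CDH18. Within each WT sample, however, CDH13 was above CDH4 and CDH4 above CDH18. In WT sample 3 CDH4 and CDH18 were close, at 14.97 and 14.85 TPM. In ARID1A-KO cells CDH24 kept second place at 31.1 ± 5.39 TPM, followed by CDH18 at 12.1 ± 0.825, CDH4 at 11.1 ± 1.91, PCDH7 at 7.69 ± 3.74 and CDH13 at 6.09 ± 0.677 TPM. The ranges of CDH18 and CDH4, of CDH4 and PCDH7 and of PCDH7 and CDH13 overlapped between samples. Within each ARID1A-KO sample CDH4 was above PCDH7. The order of CDH18 and CDH4 turned in ARID1A-KO sample 5, and that of PCDH7 and CDH13 in ARID1A-KO sample 4. Summed over all 34 genes the level was 232 ± 14.3 TPM in WT and 161 ± 13.2 TPM in ARID1A-KO samples, and the ranges of 223 to 248 and 150.0 to 176 TPM did not overlap.

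**Figure D1:**
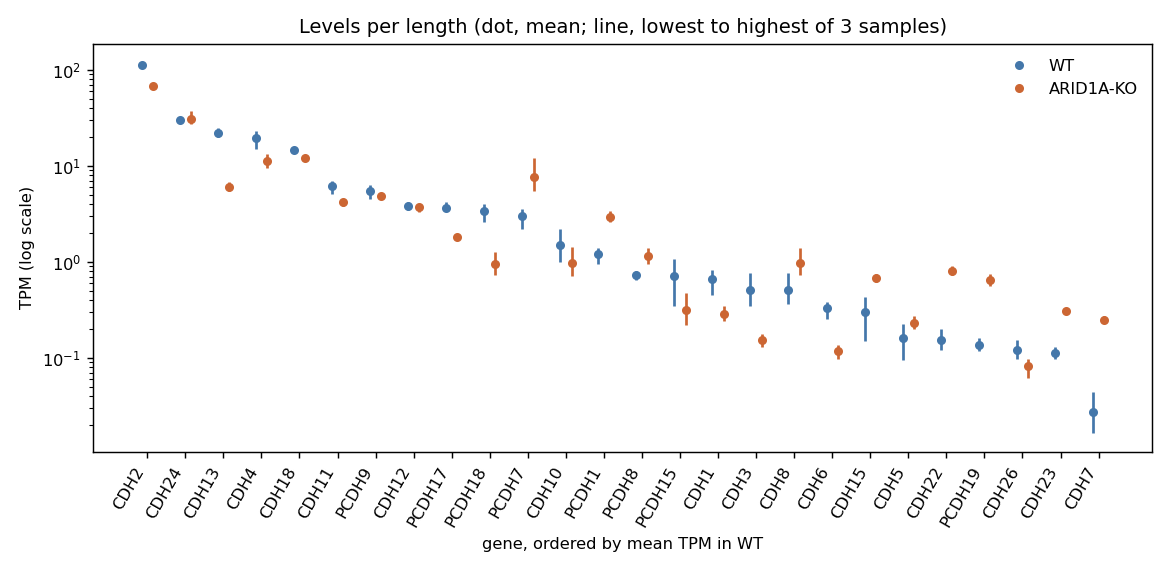
Level of each of the 26 tested cadherins and protocadherins in TPM on a log scale, ordered by mean WT level, with a dot at the mean and a line from the lowest to the highest of 3 samples. CDH2 leads at 112 TPM in WT and 67.7 TPM in ARID1A-KO samples, and CDH7 is the lowest of the WT means.

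ARID1A-KO and WT cells were compared with edgeR's quasi-likelihood test over 19599 genes, and an adjusted p under 0.05 counted as differential expression. Of the 34 cadherins and protocadherins 26 passed the filter on low counts and 19 then passed the test: in ARID1A-KO cells 9 rose and 10 fell. That is 73.1% of those tested, where 36.2% of all tested genes passed, 17.8% rising and 18.4% falling. DESeq2 gave the same 19 members and PCDH15, with 35.1% of all genes passing. A change of at least 2-fold was found for 13 members, 7 higher and 6 lower, and for 10.8% of all genes. Among the 26 tested, the 19 were also exactly those whose CPM did not overlap between genotypes, a pattern seen for 49.5% of all tested genes. Of the untested members PCDH10 and PCDH12 did not overlap either, which makes 21 of 34. The median log2 fold change of the 26 was -0.23 against 0.0066 over all genes, and the median size of the change, whatever its direction, was 1.08 against 0.27. The 10 genes that were lower had a median level of 4.96 TPM in WT and 2.99 TPM in ARID1A-KO samples, and the 9 that were higher had 0.303 and 0.799 TPM, so the genes that fell had the higher median level in both genotypes. CDH7 passed the filter only through its ARID1A-KO samples, where it is high, and CDH26 needed its WT samples to pass. Without these, 18 of 24 members (75.0%) passed the test, 8 rising and 10 falling, with 12 at 2-fold or more. Per-sample values below are given in the order of samples 3, 4 and 5 of each genotype, and fold changes are ARID1A-KO over WT.

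**Figure D2:**
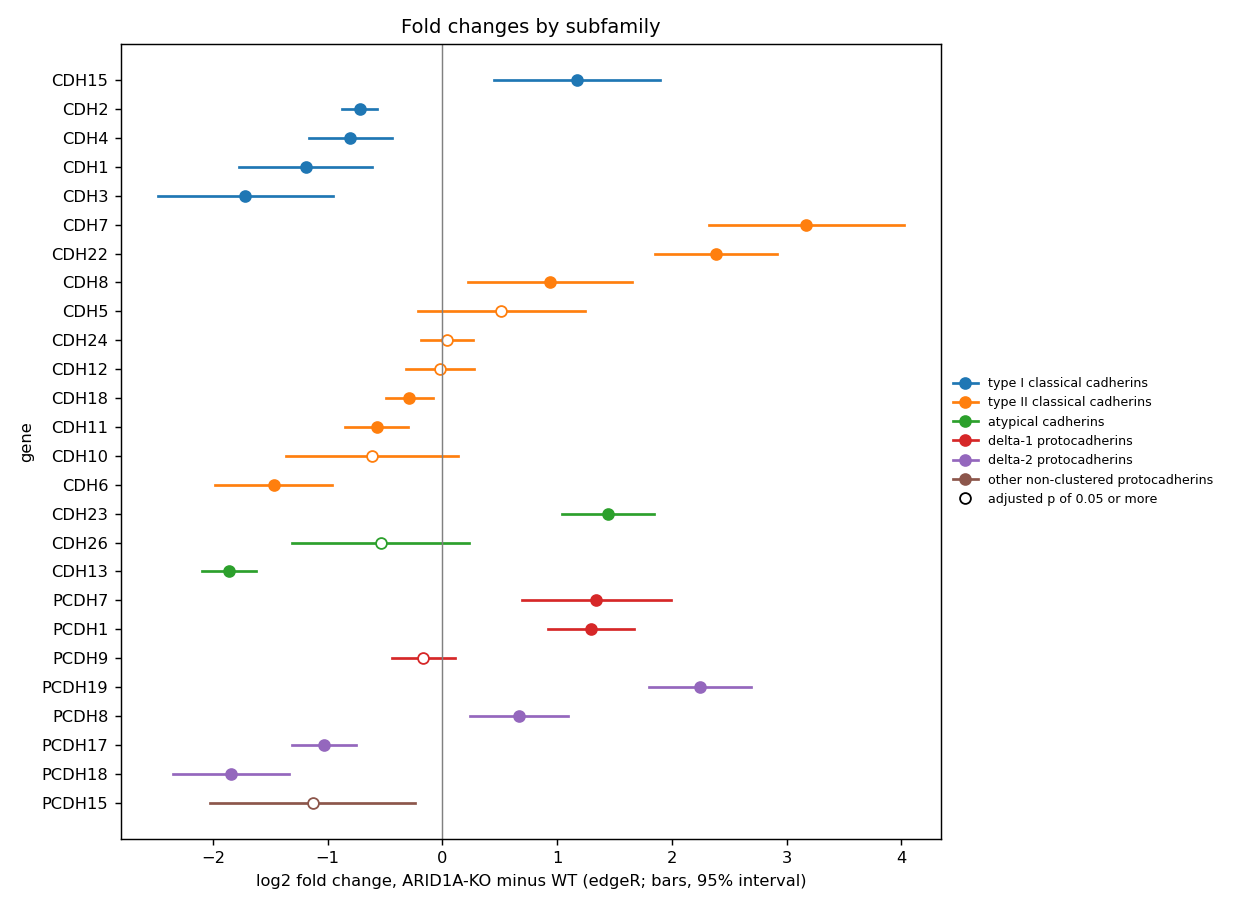
Log2 fold change of the 26 tested members (x axis, ARID1A-KO minus WT) by subfamily, with bars for the 95% interval and open circles for an adjusted p of 0.05 or more. Of the 5 type I cadherins 4 lie left of 0, whereas the type II cadherins lie on both sides, from -1.47 for CDH6 to 3.17 for CDH7.

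All 5 type I classical cadherins passed the test, and 4 fell while CDH15 rose. Of all tested genes 36.2% passed, 17.8% rising and 18.4% falling. CDH2, N-cadherin (ENSG00000170558.4, chromosome 18, 25530930 to 25757410), was at 162, 163 and 182 CPM in the WT samples and 103, 106 and 98.3 in the ARID1A-KO samples. It was 1.65-fold lower (log2 fold change of -0.72, SE 0.067, adjusted p = 5.31e-05), and every ARID1A-KO sample lay below every WT sample. CDH4, R-cadherin of retina and brain (ENSG00000179242.11, chromosome 20, 59827482 to 60515673), was at 30.3, 41.6 and 47.9 CPM in the WT samples and 20.1, 22.2 and 26.2 in the ARID1A-KO samples. The samples of each genotype were spread, but the highest ARID1A-KO value stayed under the lowest WT value (log2 fold change of -0.80, SE 0.16, adjusted p = 0.00392). The epithelial pair CDH1, E-cadherin (ENSG00000039068.14, chromosome 16, 68771128 to 68869451), and CDH3, P-cadherin (ENSG00000062038.9, chromosome 16, 68670092 to 68756519), are neighbors on the plus strand, 14609 bp apart. Both were low in WT cells and lower in ARID1A-KO cells. CDH1 was at 1.53, 0.859 and 1.37 CPM in the WT samples and 0.529, 0.455 and 0.636 in the ARID1A-KO samples (log2 fold change of -1.19, SE 0.26, adjusted p = 0.00593). CDH3 was at 0.659, 0.535 and 1.17 CPM in the WT samples and 0.206, 0.237 and 0.261 in the ARID1A-KO samples, with WT sample 5 the highest (log2 fold change of -1.72, SE 0.34, adjusted p = 0.00369). Neither gene overlapped between genotypes, and CDH3 fell 3.29-fold where CDH1 fell 2.29-fold, with 95% intervals for the log2 fold change of -2.48 to -0.96 and -1.77 to -0.61 that overlapped. The difference between these losses was not tested. RP11-354M1.2 overlaps CDH1 on the opposite strand and was counted apart by strand.

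CDH15, M-cadherin of muscle precursors (ENSG00000129910.3, chromosome 16, 89238175 to 89261900), was the type I cadherin that rose. It was at 0.4497, 0.211 and 0.619 CPM in the WT samples and 0.896, 1.06 and 0.909 in the ARID1A-KO samples. The WT samples varied and sample 4 was the lowest, but none reached the ARID1A-KO samples (log2 fold change of 1.17, SE 0.32, adjusted p = 0.0187). Its adjusted p was 0.059 without ARID1A-KO sample 4 and 0.0538 without WT sample 3.

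Of the 13 type II classical cadherins 10 were tested and 6 passed, with 3 falling and 3 rising. The shares over all tested genes were 36.2% passing, 18.4% falling and 17.8% rising. CDH6, K-cadherin of kidney and neural crest (ENSG00000113361.8, chromosome 5, 31193857 to 31329253), was at 1.42, 0.958 and 1.36 CPM in the WT samples and 0.382, 0.455 and 0.4999 in the ARID1A-KO samples and fell 2.77-fold (log2 fold change of -1.47, SE 0.23, adjusted p = 0.000959). CDH11, OB-cadherin, found on osteoblasts and mesenchyme (ENSG00000140937.9, chromosome 16, 64977656 to 65160015), was at 15.2, 21.1 and 20.3 CPM in the WT samples and 12.1, 12.7 and 13.2 in the ARID1A-KO samples (log2 fold change of -0.57, SE 0.12, adjusted p = 0.0057). The 3 ARID1A-KO samples of CDH11 lay close together, below the lowest WT sample. CDH18, a cadherin of the central nervous system (ENSG00000145526.7, chromosome 5, 19473060 to 20575982), was at 21.7, 22.5 and 21.4 CPM in the WT samples and 19.8, 17.8 and 16.1 in the ARID1A-KO samples, a small loss (log2 fold change of -0.29, SE 0.089, adjusted p = 0.0317). The genotypes did not overlap for CDH18, yet its adjusted p was 0.1 without ARID1A-KO sample 4, 0.0794 without ARID1A-KO sample 5, 0.0621 without WT sample 3, 0.0697 without WT sample 4 and 0.0588 without WT sample 5.

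CDH7 (ENSG00000081138.9, chromosome 18, 63417488 to 63548638), known from neural crest and developing brain, had the largest log2 fold change of the 26 tested genes. Its counts were 5, 2 and 2 reads in the WT and 29, 22 and 40 in the ARID1A-KO samples, or 9 against 91 in all, a ratio of 9.39 after scaling with a 95% counting interval of 4.73 to 21.2. The fitted change (log2 fold change of 3.17, SE 0.38, adjusted p = 0.000228) rests on these few WT reads, and since no WT sample reached the filter the gene had to differ to be tested at all. Without CDH7, 5 of 9 tested type II cadherins passed, 2 rising and 3 falling, beside 36.2% of all tested genes. CDH22, a cadherin of brain and pituitary (ENSG00000149654.5, chromosome 20, 44802372 to 44937137), was at 0.2998, 0.183 and 0.206 CPM in the WT samples and 1.19, 1.11 and 1.31 in the ARID1A-KO samples, so that it rose 5.22-fold from a low level in all 3 ARID1A-KO samples (log2 fold change of 2.38, SE 0.24, adjusted p = 7.86e-05). CDH8, which marks developing cortical and striatal neurons (ENSG00000150394.9, chromosome 16, 61681146 to 62070939), was at 3.09, 1.49 and 1.63 CPM in the WT samples and 3.16, 3.11 and 5.601 in the ARID1A-KO samples (log2 fold change of 0.94, SE 0.32, adjusted p = 0.0444). ARID1A-KO sample 5 was well above the others, and WT sample 3 came close to the lower ARID1A-KO samples. The adjusted p of CDH8 was 0.138 without ARID1A-KO sample 5, 0.108 without WT sample 4 and 0.146 without WT sample 5, and its log2 fold change without ARID1A-KO sample 5 was 0.60. CTC-420A11.2 overlaps CDH8 on the opposite strand, and its reads were counted apart by strand.

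The other 4 tested type II cadherins did not pass the test. CDH24 was at 36.9, 32.4 and 34.5 CPM in the WT samples and 32.3, 33.1 and 41.2 in the ARID1A-KO samples, with a log2 fold change of 0.038 (95% interval -0.19 to 0.27, adjusted p = 0.801). CDH12, a brain cadherin, was at 6.84 ± 0.765 CPM in WT and 6.73 ± 0.805 CPM in ARID1A-KO samples with an interval of -0.32 to 0.27 (adjusted p = 0.903). These intervals are narrow, and for both genes the fold change turned sign without some samples. CDH10 was at 1.68 ± 0.708 CPM in WT and 1.08 ± 0.397 CPM in ARID1A-KO samples (interval -1.36 to 0.14, adjusted p = 0.183), and CDH5, VE-cadherin of endothelium, was at 0.293 ± 0.118 CPM in WT and 0.425 ± 0.0788 CPM in ARID1A-KO samples (interval -0.22 to 1.25, adjusted p = 0.249). Their wide intervals leave room for changes of more than 2-fold.

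**Figure D3:**
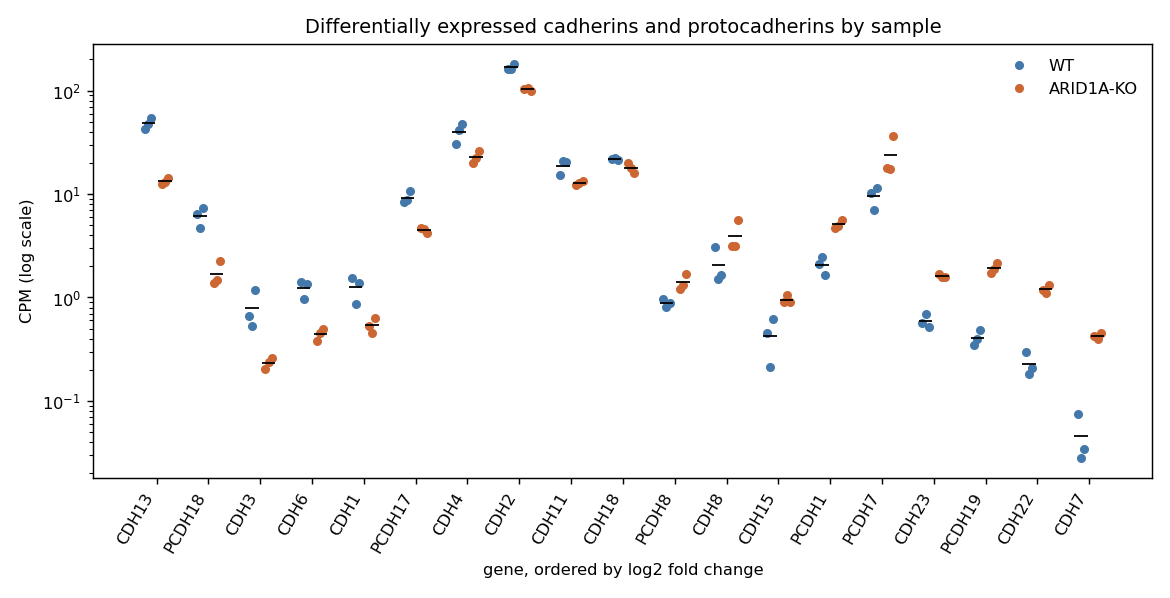
CPM of the 19 differentially expressed members on a log scale, 1 dot per sample with the mean as a line, ordered by log2 fold change. The dots of the genotypes do not overlap for any of the 19, which were picked by the test on these same samples. Of all tested genes 49.5% did not overlap. ARID1A-KO sample 5 stands above the other ARID1A-KO samples for PCDH7 and CDH8.

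Among the 5 atypical cadherins, CDH13 and CDH23 changed in opposite directions. CDH13, T-cadherin, is held to the membrane by a lipid anchor and lacks a tail (ENSG00000140945.11, chromosome 16, 82660408 to 83830204). It was at 42.6, 47.2 and 54.9 CPM in the WT samples and 12.4, 13.03 and 14.4 in the ARID1A-KO samples, a 3.63-fold loss (log2 fold change of -1.86, SE 0.11, adjusted p = 3.81e-06). The ARID1A-KO samples lay within a narrow range, far below the WT samples. CDH23, the upper strand of the hair cell tip link (ENSG00000107736.15, chromosome 10, 73156691 to 73575702), was at 0.5696, 0.6903 and 0.515 CPM in the WT samples and 1.69, 1.58 and 1.58 in the ARID1A-KO samples and rose 2.72-fold (log2 fold change of 1.44, SE 0.18, adjusted p = 0.000288). CDH26 was at 0.211 ± 0.05003 CPM in WT and 0.144 ± 0.0337 CPM in ARID1A-KO samples and did not pass the test (interval -1.31 to 0.23, adjusted p = 0.25). CDH16 and CDH17, cadherins of kidney and gut, were not tested, with 2, 1 and 0 reads in the WT and 0, 0 and 0 in the ARID1A-KO samples for CDH16 and 1, 1 and 0 reads in the WT and 3, 0 and 1 in the ARID1A-KO samples for CDH17.

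The δ protocadherins have conserved tail motifs instead of catenin-binding sites, and are divided into δ1 and δ2 by the number of outer repeats and the tail. Of the 3 δ1 genes that the name rule takes in, PCDH7 and PCDH1 rose and none fell, where 17.8% of all tested genes rose and 18.4% fell. The related PCDH11X, left out by the letter in its symbol, did not pass the test (log2 fold change of 0.20, adjusted p = 0.465). PCDH7 (ENSG00000169851.11, chromosome 4, 30722037 to 31148422), NF-protocadherin, was at 10.2, 6.99 and 11.4 CPM in the WT samples and 17.9, 17.4 and 36.4 in the ARID1A-KO samples (log2 fold change of 1.34, SE 0.29, adjusted p = 0.00591). All ARID1A-KO samples were above all WT samples, but ARID1A-KO sample 5 stood at about the sum of the other ARID1A-KO samples, and without it the log2 fold change was 0.90 with the test still passed. PCDH1 (ENSG00000156453.9, chromosome 5, 141232938 to 141258811), a protocadherin of airway epithelium, was at 2.098, 2.44 and 1.67 CPM in the WT samples and 4.67, 4.95 and 5.66 in the ARID1A-KO samples, with tight ARID1A-KO samples and no overlap (log2 fold change of 1.30, SE 0.17, adjusted p = 0.000342). PCDH9 was at 13.1, 9.55 and 11.99 CPM in the WT samples and 10.3, 10.01 and 10.5 in the ARID1A-KO samples, and the genotypes overlapped (log2 fold change of -0.17, SE 0.12, adjusted p = 0.315). WT sample 4 was the lowest of all, and without it the adjusted p of PCDH9 was 0.0491.

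Of the 5 δ2 genes 4 were tested and all 4 passed the test, PCDH19 and PCDH8 upward, PCDH18 and PCDH17 downward. Among all tested genes 36.2% passed. PCDH19 (ENSG00000165194.10, chromosome X, 99546642 to 99665271), the gene of a female-limited epilepsy, whose protein pairs with CDH2, was at 0.345, 0.394 and 0.481 CPM in the WT samples and 1.73, 1.89 and 2.15 in the ARID1A-KO samples and rose 4.75-fold (log2 fold change of 2.25, SE 0.20, adjusted p = 4.00e-05). The lowest ARID1A-KO sample was well above the highest WT sample. PCDH8 (ENSG00000136099.9, chromosome 13, 53418109 to 53422775), which brings about the uptake of CDH2 from the surface of synapses, was at 0.974, 0.803 and 0.876 CPM in the WT samples and 1.22, 1.31 and 1.67 in the ARID1A-KO samples (log2 fold change of 0.67, SE 0.19, adjusted p = 0.0215). Its genotypes came close without overlapping, and its adjusted p was 0.0634 without ARID1A-KO sample 5, 0.0599 without WT sample 4 and 0.0576 without WT sample 5. PCDH18 (ENSG00000189184.7, chromosome 4, 138440072 to 138453648) was at 6.45, 4.75 and 7.34 CPM in the WT samples and 1.38, 1.49 and 2.24 in the ARID1A-KO samples and fell 3.59-fold (log2 fold change of -1.84, SE 0.23, adjusted p = 0.000264). PCDH17 (ENSG00000118946.7, chromosome 13, 58205944 to 58303445), which helps axons extend in bundles, was at 8.39, 8.76 and 10.6 CPM in the WT samples and 4.73, 4.64 and 4.24 in the ARID1A-KO samples (log2 fold change of -1.03, SE 0.12, adjusted p = 0.000239). For both of these every ARID1A-KO sample lay below every WT sample, with PCDH18 spread widely within each genotype and PCDH17 close together in ARID1A-KO samples. PCDH10, the fifth δ2 gene, was not tested, with 2, 1 and 0 reads in the WT and 6, 9 and 7 in the ARID1A-KO samples. Its 3 and 22 reads in all gave a scaled ratio of 6.81 with a 95% counting interval of 2.05 to 35.5, and no ARID1A-KO sample was as low as a WT sample.

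Promoters are shown for the δ protocadherins with the 2 largest fitted fold changes in each direction. PCDH7 is a δ1 gene, and PCDH19, PCDH18 and PCDH17 are δ2 genes, which moved in opposite directions. PCDH7 and PCDH1 were close, and without ARID1A-KO sample 5 their order was the reverse, with log2 fold changes of 0.90 and 1.21. The promoters were taken from RefSeq (GRCh38.p14), as 300 bases around the start and mostly before it, for the genes with 1 start there. The count tables use GRCh37, so these coordinates do not apply to the gene positions above.
PCDH18, chr4:137532445-137532744, minus strand: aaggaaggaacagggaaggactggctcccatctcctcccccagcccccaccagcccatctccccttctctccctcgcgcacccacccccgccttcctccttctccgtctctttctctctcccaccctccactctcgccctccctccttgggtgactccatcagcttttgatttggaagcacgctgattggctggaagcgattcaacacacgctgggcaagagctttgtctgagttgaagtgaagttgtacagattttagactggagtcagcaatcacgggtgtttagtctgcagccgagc
PCDH17, chr13:57631494-57631793, plus strand: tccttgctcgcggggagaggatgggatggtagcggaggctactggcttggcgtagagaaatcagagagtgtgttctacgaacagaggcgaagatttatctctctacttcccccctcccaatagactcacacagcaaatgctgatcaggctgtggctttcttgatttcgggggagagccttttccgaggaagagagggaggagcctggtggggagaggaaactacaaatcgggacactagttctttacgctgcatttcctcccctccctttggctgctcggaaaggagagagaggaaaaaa
PCDH7, chr4:30720119-30720418, plus strand: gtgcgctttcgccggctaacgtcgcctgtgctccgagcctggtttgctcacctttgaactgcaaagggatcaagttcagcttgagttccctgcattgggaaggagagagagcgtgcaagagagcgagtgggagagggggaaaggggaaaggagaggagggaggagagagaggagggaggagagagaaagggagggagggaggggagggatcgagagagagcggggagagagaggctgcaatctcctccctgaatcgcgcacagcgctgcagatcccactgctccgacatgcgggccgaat
PCDH19, chrX:100410224-100410523, minus strand: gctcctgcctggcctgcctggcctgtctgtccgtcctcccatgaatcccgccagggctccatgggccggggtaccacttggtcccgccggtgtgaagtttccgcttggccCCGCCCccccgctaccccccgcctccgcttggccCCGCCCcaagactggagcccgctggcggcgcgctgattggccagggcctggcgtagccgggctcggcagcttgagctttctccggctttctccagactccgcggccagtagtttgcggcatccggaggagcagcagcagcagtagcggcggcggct
Capitals mark matches to GGGCGG, the GC box, on either strand (read here as CCGCCC), at bases 111 and 145 of the PCDH19 promoter. The search covered CACCTG (the E-box read by the SNAI and ZEB repressors), GGGCGG (the GC box), TGANTCA (the AP-1 site) and TATAAA (the TATA box) on both strands, and none of the 4 was in the other 3 promoters. GC content was 57% for PCDH18, 52.7% for PCDH17, 60.3% for PCDH7 and 71% for PCDH19, with 10, 11, 16 and 26 CpG. PCDH1 held CACCTG at base 170 and GGGCGG at 137 and 192, and PCDH8 held GGGCGG at 284 and TATAAA at 221. In all 21 of the 34 members matched the table, with 33 promoters: CACCTG was in 4 of them, GGGCGG in 9, TGANTCA in 3 and TATAAA in 4. Over all 35116 promoters the shares were 20.6%, 45.0%, 7.71% and 11.5% in that order. CDH1, CDH3, CDH5, CDH6, CDH11, CDH13, CDH15, CDH16, CDH17, CDH22, CDH24, PCDH10 and PCDH20 had no entry.

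PCDH15, the lower partner of CDH23 in the tip link, was the 1 tested gene of the 3 remaining protocadherins. It was at 3.15, 1.59 and 4.95 CPM in the WT samples and 1.04, 1.18 and 2.11 in the ARID1A-KO samples and narrowly missed the test (log2 fold change of -1.13, SE 0.40, adjusted p = 0.0513). WT sample 4 overlapped the ARID1A-KO samples, and the adjusted p was 0.0216 without ARID1A-KO sample 5 and 0.00552 without WT sample 4. PCDH12, a protocadherin of endothelium, had 2, 4 and 2 reads in the WT and 8, 6 and 6 in the ARID1A-KO samples and was not tested. Its 8 and 20 reads gave a scaled ratio of 2.32 with an interval of 0.979 to 6.09. PCDH20 and the type II gene CDH9 had no read in any sample, CDH20 had 0, 0 and 0 reads in the WT and 0, 1 and 0 in the ARID1A-KO samples and CDH19 had 0, 1 and 0 reads in the WT and 0, 2 and 4 in the ARID1A-KO samples. A count of 0 allows up to 3 reads per sample, counting error only.

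Position was examined since 8 of the 34 genes lie on chromosome 16. For each differentially expressed member the tested genes within 5 Mb were taken, leaving out all 34 members. Their median log2 fold changes ran from -1.04 to 0.57. The 139 genes around CDH1 and CDH3 had a median of 0.57, higher in ARID1A-KO cells where both cadherins were lower, and those around CDH11 had 0.52. Around CDH13 it was 0.11, around CDH8 0.29 and around CDH15 0.40. Members of chromosome 16 therefore moved both with and against the genes around them. Neighbors with a median of at least 0.3 in the member's own direction were found for 4 of the 19: PCDH18 with -0.58 over 27 genes, PCDH17 with -1.04 over 3 genes, CDH23 with 0.40 and CDH15 with 0.40. For PCDH17 the neighbors moved as far as the gene itself. The genes around CDH2, CDH22, PCDH19 and PCDH8 were near 0, at -0.02, 0.0016, -0.039 and 0.0055. Within 2 Mb the median around CDH2 was -0.29 over 5 genes, in the direction of its own fall, and that around CDH13 was -0.14 over 26 genes. Around CDH7 it was -0.12 over 25 genes within 5 Mb and 0.35 over 3 genes within 2 Mb. Around PCDH7 the median was -0.33 over 7 genes, opposite to its own rise. The part of regional shifts in these results was not tested.

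**Figure D4:**
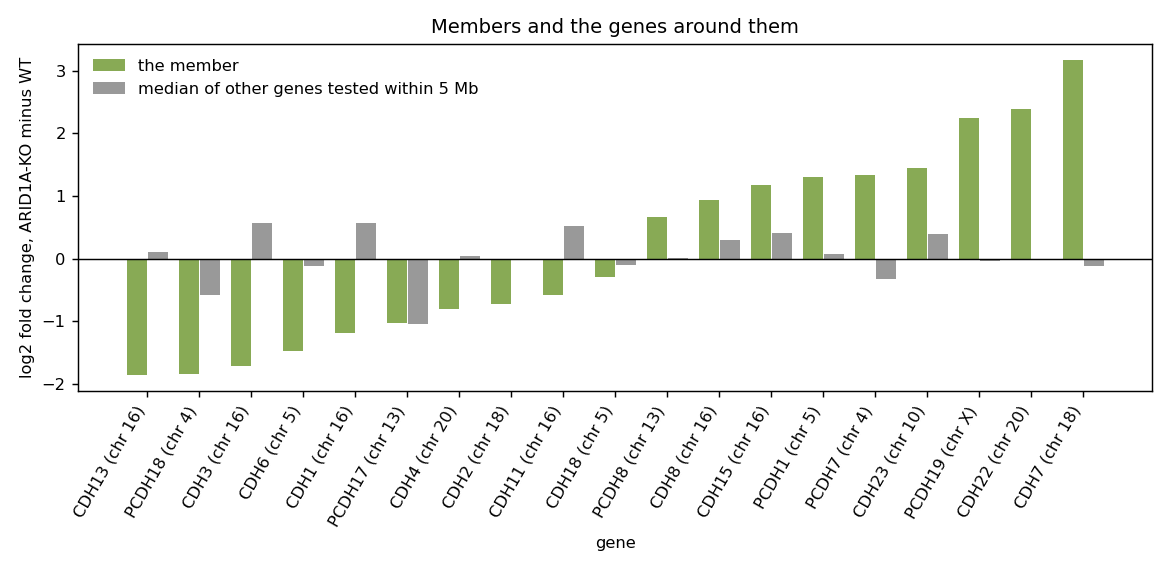
Log2 fold change of each differentially expressed member (green) beside the median of tested non-members within 5 Mb (gray), with the chromosome named. The gray bars run from -1.04 at PCDH17 to 0.57 at CDH1 and CDH3, where the members point downward.

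Catenins and other adhesion partners mostly fell. Of 16 listed genes 15 were tested and 11 passed, with ARVCF rising and 10 falling. The median log2 fold change of the 15 was -0.35. Of all genes tested 36.2% passed, 17.8% rising and 18.4% falling, with a median of 0.0066. CTNND2, δ-catenin of neurons, was at 7.18 ± 2.29 CPM in WT and 1.85 ± 0.236 CPM in ARID1A-KO samples (log2 fold change of -1.96, SE 0.22, adjusted p = 0.000186). LIMA1, which ties α-catenin to actin, was at 199 ± 14.6 CPM in WT and 94.95 ± 5.01 CPM in ARID1A-KO samples (log2 fold change of -1.07, SE 0.073, adjusted p = 1.03e-05). JUP, plakoglobin, was at 15.3 ± 4.16 CPM in WT and 7.48 ± 2.11 CPM in ARID1A-KO samples (log2 fold change of -1.02, SE 0.23, adjusted p = 0.00803). PKP4 (-0.71, adjusted p = 2.25e-05), the actin linker AFDN (-0.70, adjusted p = 3.26e-05) and CTNNA2 (-0.62, adjusted p = 0.0101) were lower too. The catenins of the core complex changed little in size: CTNNB1 fell by 0.22 and CTNNA1 by 0.35 on the log2 scale (adjusted p = 0.0196 and 0.00221). The adjusted p of CTNNB1 was 0.0599 without ARID1A-KO sample 4 and 0.0538 without WT sample 4. CTNND1, p120, had a log2 fold change of -0.024 with a 95% interval of -0.17 to 0.13 (adjusted p = 0.815), and it turned sign without some samples. ARVCF, a close relative of CTNND1, was at 56 ± 1.57 CPM in WT and 85.8 ± 6.73 CPM in ARID1A-KO samples and rose (log2 fold change of 0.62, SE 0.071, adjusted p = 0.000185).

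Genes known to repress CDH1 in other cells were listed too. Of 10 listed 9 were tested and 7 passed (77.8%), with 5 rising and 2 falling and a median log2 fold change of 0.33. Over all tested genes 36.2% passed, 17.8% rising and 18.4% falling, with a median of 0.0066. KLF8 was at 0.373 ± 0.161 CPM in WT and 1.15 ± 0.296 CPM in ARID1A-KO samples (log2 fold change of 1.65, SE 0.33, adjusted p = 0.00394), ZEB2 at 0.304 ± 0.07702 CPM in WT and 0.738 ± 0.127 CPM in ARID1A-KO samples (log2 fold change of 1.28, SE 0.26, adjusted p = 0.0043) and TWIST2 at 1.43 ± 0.07097 CPM in WT and 2.54 ± 0.583 CPM in ARID1A-KO samples (log2 fold change of 0.83, SE 0.19, adjusted p = 0.00775). All 3 were low in WT cells and none overlapped between genotypes, a pattern seen for 49.5% of all tested genes. TCF3, E2A, rose by less (log2 fold change of 0.49, SE 0.11, adjusted p = 0.00602). ZEB1 was at 38.5 ± 3.62 CPM in WT and 48.5 ± 5.23 CPM in ARID1A-KO samples (log2 fold change of 0.33, SE 0.10, adjusted p = 0.0236), and its adjusted p was 0.09 without ARID1A-KO sample 3, 0.0561 without ARID1A-KO sample 4, 0.0899 without WT sample 3 and 0.0806 without WT sample 5. SNAI2, Slug, was at 6.45 ± 0.475 CPM in WT and 5.03 ± 0.2599 CPM in ARID1A-KO samples (log2 fold change of -0.36, SE 0.11, adjusted p = 0.0334), with an adjusted p of 0.0682 without ARID1A-KO sample 3, 0.0969 without ARID1A-KO sample 4, 0.0763 without ARID1A-KO sample 5 and 0.101 without WT sample 3.

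The tip link of hair cells joins CDH23 to PCDH15, and 9 genes of its anchoring and channel complex were listed. Of these 7 were tested and 5 passed (71.4%), with 4 rising and 1 falling and a median log2 fold change of 0.82. Among all tested genes 36.2% passed, 17.8% rising and 18.4% falling. USH1C, harmonin, which binds the CDH23 tail, was at 0.285, 0.169 and 0.344 CPM in the WT samples and 4.99, 5.39 and 6.37 in the ARID1A-KO samples and rose 21.2-fold (log2 fold change of 4.41, SE 0.23, adjusted p = 3.00e-06). WHRN, whirlin, was at 6.29 ± 1.299 CPM in WT and 13.1 ± 1.61 CPM in ARID1A-KO samples (log2 fold change of 1.06, SE 0.15, adjusted p = 0.000751), USH1G at 0.672 ± 0.05402 CPM in WT and 1.19 ± 0.0903 CPM in ARID1A-KO samples (log2 fold change of 0.82, SE 0.18, adjusted p = 0.00573) and CIB2 at 4.47 ± 0.624 CPM in WT and 6.93 ± 0.341 CPM in ARID1A-KO samples (log2 fold change of 0.63, SE 0.13, adjusted p = 0.00445). LHFPL5, which couples PCDH15 to the channel, was the 1 that fell, at 0.795 ± 0.114 CPM in WT and 0.125 ± 0.09502 CPM in ARID1A-KO samples (log2 fold change of -2.66, SE 0.40, adjusted p = 0.000883), with a log2 fold change of -3.47 without ARID1A-KO sample 3. It passed the filter through its WT samples, where it is high, and TMIE through its ARID1A-KO samples. Without both, 4 of 5 listed genes passed the test and all 4 rose.

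Relatives with cadherin repeats outside the name rule changed in both directions. Of 27 listed 19 were tested and 10 passed (52.6%), with 4 rising and 6 falling and a median log2 fold change of -0.039. Among all tested genes 36.2% passed, 17.8% rising and 18.4% falling. CLSTN2, a calsyntenin of synapses, was at 4.43 ± 0.688 CPM in WT and 0.556 ± 0.179 CPM in ARID1A-KO samples (log2 fold change of -2.96, SE 0.23, adjusted p = 2.38e-05), and CDHR1, a photoreceptor cadherin, at 5.61 ± 1.69 CPM in WT and 19.5 ± 0.172 CPM in ARID1A-KO samples (log2 fold change of 1.80, SE 0.18, adjusted p = 8.94e-05). DCHS2, a dachsous cadherin, was at 141 ± 2.93 CPM in WT and 48.4 ± 3.69 CPM in ARID1A-KO samples (log2 fold change of -1.54, SE 0.069, adjusted p = 1.22e-06), and FAT3 at 1.72 ± 0.172 CPM in WT and 0.529 ± 0.201 CPM in ARID1A-KO samples (log2 fold change of -1.66, SE 0.25, adjusted p = 0.000913). RET, a receptor kinase with cadherin repeats, was low at 0.084 ± 0.0432 CPM in WT and 0.225 ± 0.0181 CPM in ARID1A-KO samples (log2 fold change of 1.36, SE 0.41, adjusted p = 0.0282), with an adjusted p of 0.0796 without ARID1A-KO sample 3, 0.0791 without ARID1A-KO sample 4, 0.0577 without WT sample 3 and 0.0721 without WT sample 5. FAT2 was low too, at 0.386 ± 0.117 CPM in WT and 0.174 ± 0.0302 CPM in ARID1A-KO samples (log2 fold change of -1.15, SE 0.32, adjusted p = 0.0202), with an adjusted p of 0.0733 without ARID1A-KO sample 4, 0.0513 without ARID1A-KO sample 5 and 0.0782 without WT sample 4. RET reached the filter in no WT sample, FAT2 needed its WT samples and CDHR2 its ARID1A-KO samples to pass it. Without these, 8 of 16 relatives (50.0%) passed the test, 3 rising and 5 falling.

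**Figure D5:**
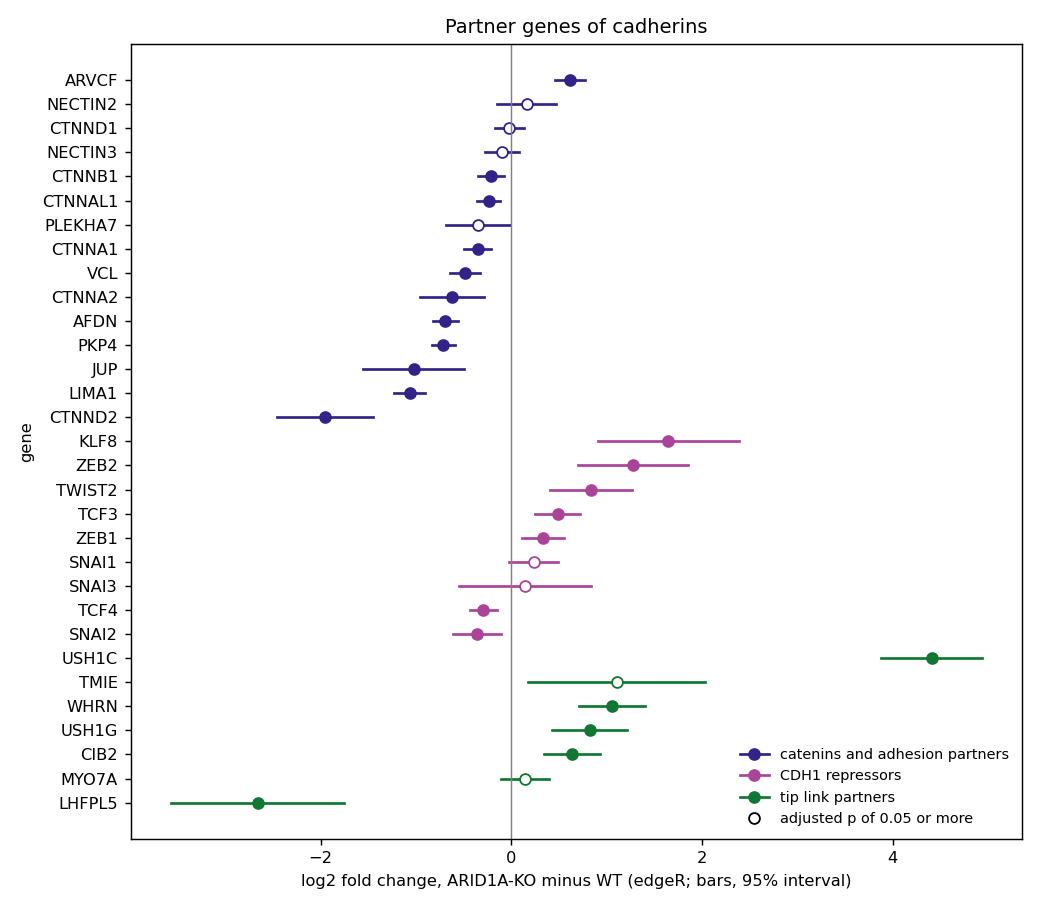
Log2 fold change (x axis, ARID1A-KO minus WT) of the tested catenins and adhesion partners, CDH1 repressors and tip link partners, with bars for the 95% interval and open circles for an adjusted p of 0.05 or more. Most catenins and partners lie left of 0, and USH1C lies farthest right at 4.41.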

How the data were processed

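RNA-seq of untreated AID-DIvA cells, 3 WT and 3 ARID1A-KO samples, was analysed from one gene table per sample. The labels give polyA RNA, whereas the library kit they name is a stranded total RNA kit. According to the methods, read pairs were mapped by STAR to GRCh37 (hg19) within the Roddy workflow and summed over genes by featureCounts. The authors deposited raw counts for the reverse-strand, forward-strand and strandless settings, and TPM values that sum to the same total over all genes in each sample. The members and lists were chosen with earlier results of these data known.

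Reverse-stranded counts were filtered with filterByExpr, which kept 19599 genes, scaled by TMM and compared between genotypes with the quasi-likelihood test of edgeR 4.0.16 in R 4.3.3, with Benjamini-Hochberg adjustment over all genes tested. SE is the fold change divided by the square root of F, and intervals are 95% from the moderated t distribution. CPM used TMM library sizes. DESeq2 1.42.0, RLE or no scaling, other filters, unstranded counts, a replicate block and leaving out each sample were alternatives. Every member was named, and of each list the differentially expressed genes with the largest change, at most 6; CTNNB1, CTNNA1, CTNND1 and ARVCF were named in addition, after their values were seen. Older symbols in the tables (MLLT4, PVRL2, PVRL3 and DFNB31) were matched to AFDN, NECTIN2, NECTIN3 and WHRN, and the endothelial marker PECAM1 was not matched. Some marker genes are not reported here. The fit was tested on simulated counts. Samples of a genotype differed by more than sampling noise (chi-square per gene from 7.57 to 32.9), at a common biological coefficient of variation of 0.111. Counting intervals and floors cover counting error only.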

Additional observations from a re-analysis of the deposited data

Results flagged for a closer look

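Forward-strand reads run opposite to the gene in this stranded library. They were not used in the main test and entered only the alternative with unstranded counts. Members with at least 60 such reads were PCDH12, CDH23, CDH8, CDH1, CDH4, CDH20 and CDH2. Over CDH8 and CDH4 the reads stood higher in CPM in every ARID1A-KO sample than in every WT sample. Over CDH1 and PCDH12 they were lower in CPM in every ARID1A-KO sample, and over CDH23, CDH20 and CDH2 the genotypes overlapped. On the reverse strand 49.5% of all tested genes did not overlap in either direction, and no such share is given for the forward strand. Over CDH8 the forward-strand reads were at 0.435, 0.521 and 0.292 CPM in the WT samples and 0.999, 0.946 and 1.05 in the ARID1A-KO samples, a mean of 0.997 CPM in ARID1A-KO and 0.416 CPM in WT samples. The gene CTC-420A11.2 lies there on the other strand and did not pass the test (log2 fold change of 1.03, SE 0.37, adjusted p = 0.0533). Over CDH4 the forward-strand reads were at 0.165, 0.211 and 0.206 CPM in the WT samples and 0.294, 0.509 and 0.489 in the ARID1A-KO samples, a mean of 0.431 CPM in ARID1A-KO and 0.194 CPM in WT samples, where CDH4 itself fell. Forward-strand counts were 5.83 to 6.15% of reverse-strand counts in the samples, and what gave the reads over CDH8 and CDH4 was not tested.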

How the results depend on the processing

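Of the 26 tested members, 20 passed the test with DESeq2, 20 with RLE scaling (36.1% of all genes), 19 with library size alone (37.02%), 19 with unstranded counts (34.1%), 18 with at least 10 counts in every sample (36.7%), 21 with no filter (22.6%), 15 at an adjusted p under 0.01 (22.5%) and 16 to 19 without 1 sample (26.2% to 35.3%). PCDH12, with unstranded counts, and PCDH10, with no filter, passed in addition, for 20 and 22 of 34. Leaving out each of the 6 samples in turn kept 15 of the 19 calls throughout. The log2 fold change of CDH12 was 0.021 with library size alone, 0.071 without WT replicate 4 and 0.074 without ARID1A-KO replicate 5, and that of CDH24 was -0.0077 without WT replicate 4 and -0.083 without ARID1A-KO replicate 5, in each case the opposite sign. Without 1 sample each, CDH12 ranged from -0.080 to 0.074 and CDH24 from -0.083 to 0.11. That of CTNND1 ran from -0.064 to 0.025 without 1 sample, and was 0.024 with library size alone, 0.013 without WT replicate 4 and 0.025 without ARID1A-KO replicate 5, also of opposite sign. CDH2 held 46.9% of the members' TPM in WT samples with unstranded TPM, against 48.4%. Within 2 Mb rather than 5 Mb, the members with neighbors shifted in their own direction were PCDH18, CDH23, CDH15 and CDH7, and around PCDH17 no gene was tested. The causes of these changes were not tested. With the replicate number as a block 21 members (38.1% of all genes) passed, 9 higher and 12 lower, CDH10 and PCDH15 being added, but deviations of same-numbered samples correlated at -0.18, 0.27 and 0.18, so the numbers were not taken to pair the samples. WT sample 3 correlated best with ARID1A-KO sample 5 (0.30), and WT sample 4 with ARID1A-KO sample 3 (0.28). No scaling moved the median of all genes by more than 0.055 (log2). Depth limits the members under the filter and CDH7, whose WT values rest on 9 reads.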

Other observations

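Reads on the strand opposite to CDH1 fell with it: they were at 0.929, 1.06 and 1.12 CPM in the WT samples and 0.0734, 0.09098 and 0.125 in the ARID1A-KO samples. The gene RP11-354M1.2, named here after its values were seen, lies on that strand within the CDH1 locus and was lower in ARID1A-KO cells (log2 fold change of -2.84, SE 0.36, adjusted p = 0.000306). With unstranded counts, which add both strands, the log2 fold change of CDH1 was -1.76 (adjusted p = 0.000178). Over PCDH12, forward-strand counts were 182, 132 and 114 reads in the WT and 70, 61 and 146 in the ARID1A-KO samples, against the far fewer reverse-strand reads given above, and RNF14 lies there on the other strand. With unstranded counts PCDH12 had a log2 fold change of -0.67 (adjusted p = 0.0411), opposite in sign to its reverse-strand reads. With no filter on low counts PCDH10 passed the test, with a log2 fold change of 2.66 (adjusted p = 0.0109). Over CDH23 the forward-strand reads were at 0.615, 0.9298 and 0.498 CPM in the WT samples and 0.823, 1.27 and 1.704 in the ARID1A-KO samples, and the genotypes overlapped.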
